A study of Mus musculus with 8 samples.

Results

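Aldehyde dehydrogenases oxidise aldehydes to carboxylic acids with NAD or NADP as the electron acceptor. The 10 genes described here are those whose symbol in the deposited count table is Aldh1a1, Aldh1a2, Aldh1a3, Aldh1a7, Aldh1b1, Aldh2, Aldh3a1, Aldh3a2, Aldh3b1 or Aldh18a1, out of 21 Aldh genes and 24537 genes in all. RNA was sequenced from EpCAM-positive cells sorted from pancreatic tumours of FVB/NJ mice, 1 library per mouse. All mice carried Tp53f/f, Rosa26LSL-Luc and Pdx1-Cre with a further conditional allele that is not reported here, so that a Pdx1-driven Cre recombinase switches on a luciferase reporter and deletes p53 in the pancreatic lineage. At 42 to 43 days of age every mouse began a course of gemcitabine (50 mg/kg on days 1 and 4) with an antibody (25 mg/kg on days 1, 3 and 5), which was control IgG in 4 mice and an antibody against the cytokine LIF in the other 4. Tumours were dissected on day 6, at about 48 days of age, so each value below compares the antibodies in mice that all received gemcitabine.

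The enzymes encoded by Aldh1a1, Aldh1a2 and Aldh1a3 convert retinaldehyde to retinoic acid, the ligand of the nuclear retinoic acid receptors. High ALDH1 activity is widely used as a flow cytometry marker of progenitor-like and tumour-initiating cells, in the pancreas among other tissues. The mitochondrial enzyme ALDH2 clears acetaldehyde and lipid peroxidation products, the ALDH3 enzymes act on fatty and aromatic aldehydes, and the Aldh18a1 product makes the precursor of proline.

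Total counts in genes ran from 15135457 to 18972281 per library. Of the 12 pairs of libraries within an arm, the 3 that involve anti-LIF library KPCL-PCC_227_GA were the least alike (chi-square per gene 77.0 to 97.5, against 19.3 to 43.8 for the other pairs), so results are also given without it. The sort marker Epcam was present in every library and lower with anti-LIF (575 ± 76.8 CPM with IgG and 305 ± 74.8 with anti-LIF, mean ± SD, n = 4; adjusted p = 0.0102). CPM are counts scaled by the library total times its TMM factor, and adjusted p values are from edgeR's quasi-likelihood test over 14711 tested genes with a threshold of 0.05. A list of 30 epithelial genes held 0.759% to 0.925% of counts with IgG and 0.244% to 0.476% with anti-LIF. A list of macrophage genes, 24 of them in the table, held 2.13% to 2.70% with IgG and 3.67% to 5.35% with anti-LIF, and 24 acinar genes held 0.0659% to 0.304% and 0.422% to 2.11%. No marker of these 3 lists was at 0 in all libraries. In such sorted bulk samples, fewer cells of a type and less RNA per cell cannot be told apart. The part of these shifts in the results below was not tested. Where a scaling to the epithelial or macrophage list is given, it shifts all genes together (medians 1.04 and -1.02) and does not test that part.

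The promoters of Aldh1a1, Aldh1a7 and Aldh1a2 are shown because the former pair fell together and the last moved the opposite way. Aldh1a1 and Aldh1a7 are neighbouring copies on chromosome 19, in opposite orientations with 49.5 kb between their ends, and Aldh1a2 lies on chromosome 9. The 110 bases before each RefSeq start site (GRCm38.p6) are at chr19:20601858-20601967 on the plus strand, chr19:20727557-20727666 on the minus strand and chr9:71215679-71215788 on the plus strand. Capitals mark every match to ATGCAAAT, the octamer bound by POU factors, and to CCAAT, searched on both strands.
Aldh1a1: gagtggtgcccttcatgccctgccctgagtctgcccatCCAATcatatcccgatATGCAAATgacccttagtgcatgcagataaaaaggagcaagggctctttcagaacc
Aldh1a7: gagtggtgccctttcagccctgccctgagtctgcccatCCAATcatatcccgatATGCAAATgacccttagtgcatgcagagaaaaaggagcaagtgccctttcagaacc
Aldh1a2: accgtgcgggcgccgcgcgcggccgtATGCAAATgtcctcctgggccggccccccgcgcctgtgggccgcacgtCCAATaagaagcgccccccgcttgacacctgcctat

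The Aldh1a1 and Aldh1a7 windows were identical at 104 of 110 bases (94.5%), with an unbroken shared run of 65 bases that holds both motifs. Counting from 1 at the first printed base, and with the Aldh1a1 base first, the differences were C14T, A15C, T16A, T82G, G96T and T99C. The change T82G lies 29 bases before the start site and removes the ATAAAA of Aldh1a1, a TATA-like match that the Aldh1a7 window lacks. Over all 32851 promoter windows of this length in the RefSeq table, 0.731% held the octamer, 20.2% held CCAAT and 7.68% held ATAAAA, on either strand. The octamer stood 56 bases before the RefSeq start in Aldh1a1 and Aldh1a7 and 84 before it in Aldh1a2. For Aldh1a1 that start, the nearest of 2 entries, lies upstream of the counted transcript, which begins at 20601982. Measured from there, the Aldh1a1 octamer and T82G lie further away. The table had entries for 7 of the 10 genes, and the octamer was in these 3 alone among them (Aldh1b1, Aldh3a2, Aldh3b1 and Aldh18a1 lacked it). Of the 3 genes that hold it, 2 fell and 1 rose. The window and the motifs were chosen after the sequences were seen, and the letters describe the windows and show no binding.

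Across the family, 8 of the 10 genes differed between the arms. Aldh1a1, Aldh1a3 and Aldh1a7 fell with anti-LIF, while Aldh1a2, Aldh1b1, Aldh2, Aldh3b1 and Aldh18a1 rose, and Aldh3a1 and Aldh3a2 did not pass the test. All 10 passed the filter on low counts. Their median log2 fold change (anti-LIF minus IgG) was 0.21, against -0.01 over all tested genes. Of all tested genes 32.2% were called, 15.7% higher and 16.5% lower, and the 10 genes were chosen with earlier results in view, so the count of 5 higher and 3 lower is a description. In 6 of the 10 the arms did not overlap, compared with 35.7% of tested genes. Without anti-LIF library KPCL-PCC_227_GA the counts were 4 higher and 3 lower, and without IgG library KPCL-PCC_343_G they were 2 and 3. Leaving out KPCL-PCC_393_G, KPCL-PCC_310_GA or KPCL-PCC_354_GA gave 3 and 3. The calls over all genes fell too, from 4731 of 14711 tested genes with all 8 libraries. They were 4099 of 14897 without KPCL-PCC_227_GA and 2974 of 14835 without KPCL-PCC_343_G. Without KPCL-PCC_393_G, KPCL-PCC_310_GA or KPCL-PCC_354_GA they were 3470 of 14816, 4354 of 14921 and 3257 of 14933. When libraries were scaled to the macrophage list the counts turned to 0 higher and 6 lower, and with the epithelial list to 6 and 2. Of all 14711 tested genes, 221 were higher and 11885 lower on the macrophage scale, and 11282 and 170 on the epithelial scale. These scalings shift all genes together, so the turn is not particular to the 10 genes.

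**Figure D1:**
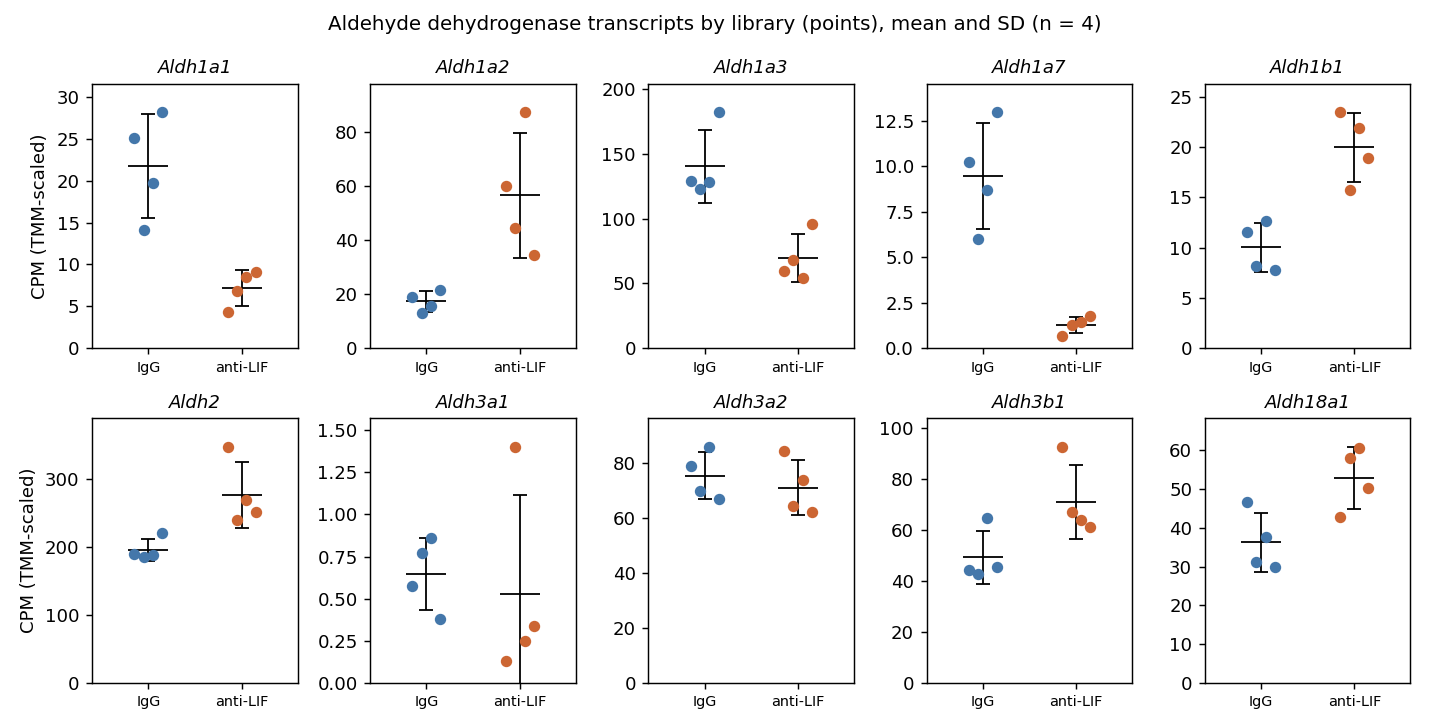
Each panel plots 1 gene, with TMM-scaled CPM on a linear axis from 0, points for the 4 libraries of each arm, and the mean with SD in black (a bar that would reach below 0 is cut there). The anti-LIF points of Aldh1a1, Aldh1a3 and Aldh1a7 all lie below the IgG points, those of Aldh1a2, Aldh1b1 and Aldh2 all lie above, and the arms overlap in the other 4 genes.

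Aldh1a1, the cytosolic retinaldehyde dehydrogenase that underlies much of the ALDH activity assay, lies at chromosome 19, 20601982 to 20643462 (mm10, plus strand). With IgG it stood at 25.1 CPM in KPCL-PCC_203_G, 14.1 in KPCL-PCC_343_G, 19.7 in KPCL-PCC_345_G and 28.2 in KPCL-PCC_393_G. With anti-LIF it stood at 4.34 CPM in KPCL-PCC_227_GA, 6.88 in KPCL-PCC_310_GA, 8.47 in KPCL-PCC_354_GA and 9.07 in KPCL-PCC_391_GA. Every anti-LIF library was below every IgG library, and the lowest of all was library KPCL-PCC_227_GA. Aldh1a1 fell 3.03-fold (log2 fold change -1.60 ± 0.28 SE, adjusted p = 0.00540 by edgeR), or by 1.42 on the log2 scale without library KPCL-PCC_227_GA. Scaled to the epithelial list, which moved the median of all genes to 1.04, Aldh1a1 was still lower (log2 fold change -0.61, adjusted p = 0.0395 by edgeR).

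Aldh1a7, the rodent copy of Aldh1a1 (chromosome 19, 20692953 to 20727556, minus strand), had the largest fold change among the 10 genes. IgG libraries held 10.2, 5.99, 8.71 and 13.0 CPM, in the order given for Aldh1a1, which is kept for all genes below. Anti-LIF libraries held 0.639, 1.27, 1.42 and 1.75 CPM, from 10, 19, 23 and 26 reads. The libraries ranked the same way within each arm for Aldh1a7 as for Aldh1a1, and the arms were far apart. The fall was 7.44-fold (-2.89 ± 0.34 SE, adjusted p = 0.00284 by edgeR), with a log2 fold change of -2.67 without library KPCL-PCC_227_GA and -1.93 when scaled to the epithelial list. The count ratio of Aldh1a1 to Aldh1a7 was 2.18 to 2.46 with IgG and 5.19 to 6.80 with anti-LIF, and the arms did not overlap.

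Reads of the copies can be confused. In an alignment of the GENCODE transcripts, Aldh1a1 and Aldh1a7 were identical at 1836 of 2050 aligned bases (89.6%). Of all stretches of 50 bases in the Aldh1a7 transcript, 7.49% also occurred in Aldh1a1, and it was the only pair among 45 pairs of these genes to share any. No source used here says how the authors assigned reads that match both copies, so the low Aldh1a7 values with anti-LIF are uncertain.

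Aldh1a3, the retinaldehyde dehydrogenase most abundant in these cells with IgG (chromosome 7, 66390893 to 66427477, minus strand), was at 129, 123, 128 and 182 CPM in the IgG libraries, in the same order. It was at 59.9, 67.7, 53.9 and 96.2 CPM in the anti-LIF libraries. IgG library KPCL-PCC_393_G was the highest and the arms did not overlap. The fall was 2.02-fold (-1.02 ± 0.20 SE, adjusted p = 0.00784 by edgeR; -0.95 without library KPCL-PCC_227_GA). Scaled to the epithelial list the log2 fold change was -0.02 (adjusted p = 0.940 by edgeR), and no difference from the summed epithelial genes was detected.

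Aldh1a2 encodes the retinaldehyde dehydrogenase known from embryonic mesoderm, mesothelium and some dendritic cells and macrophages (chromosome 9, 71215789 to 71296243, plus strand). Its IgG libraries stood at 19.0, 12.8, 15.5 and 21.6 CPM. Its anti-LIF libraries stood at 59.9, 44.3, 87.3 and 34.3 CPM, all above the IgG values, with library KPCL-PCC_354_GA the highest. Aldh1a2 rose 3.28-fold (1.71 ± 0.29 SE, adjusted p = 0.00502 by edgeR), and the log2 fold change was 1.68 without library KPCL-PCC_227_GA. Scaled to the macrophage list, which moved the median of all genes to -1.02, it was 0.68 with an adjusted p = 0.0588 by edgeR and no longer passed.

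Markers of the cell types known for Aldh1a2 differed in their counts. Of 24 macrophage markers 17 were higher and none lower (median log2 fold change 0.89), against 15.7% higher and 16.5% lower over all tested genes. Of 12 dendritic cell markers, 4 were higher and 1 was lower (median log2 fold change 0.49), against 15.7% higher and 16.5% lower over all tested genes. Cd209a, a lectin of monocyte-derived dendritic cells and macrophages, went from 5.51 ± 3.76 to 36.7 ± 20.0 CPM, and like Aldh1a2 was highest in library KPCL-PCC_354_GA (62.7 CPM). The acinar list was also highest in that library (2.11% of counts), whereas the macrophage list was highest in KPCL-PCC_227_GA (5.35%). Itgae, carried by a dendritic cell subset that makes retinoic acid, was 16.3 ± 8.03 CPM with IgG and 20.6 ± 11.5 with anti-LIF, and did not pass. Clec9a and Flt3, further dendritic cell markers, had log2 fold changes of -1.24 and -0.44 and did not pass either. Batf3 and Irf8, on the same list, rose (log2 fold changes 1.99 and 0.79, adjusted p = 0.0124 and 0.00676 by edgeR). On the macrophage scale Batf3 was at 1.03 and Irf8 at -0.25, and neither passed. The dendritic list held 0.0707% to 0.0880% of counts with IgG and 0.0425% to 0.0966% with anti-LIF, although it includes Cd24a, which epithelium also makes and which fell. The mesothelial list, 10 markers of which were in the table, held 0.0490% to 0.0986% with IgG and 0.00575% to 0.0311% with anti-LIF. Its 9 tested genes had a median log2 fold change of 0.22, so the fall in the summed share does not hold for most of them. Of these genes 2 were lower and none higher, against 16.5% lower and 15.7% higher over all tested genes. The 2 were Msln, which carcinoma cells also make, and the cadherin gene Cdh2, neither of which passed without IgG library KPCL-PCC_393_G. Cdh2 did not pass without IgG library KPCL-PCC_343_G either. The mesothelial transcription factor Wt1 was 3.81 ± 2.60 CPM with IgG and 4.67 ± 2.56 with anti-LIF. No marker of these lists was at 0 in all libraries, and the part of such cells in the Aldh1a2 rise was not tested.

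The retinaldehyde dehydrogenases changed in opposite directions, and their relative levels changed order. Compared per length in FPKM (reads scaled by transcript length and library total), Aldh1a3 made up 64.6%, 74.0%, 69.4% and 69.5% of the summed Aldh1a1, Aldh1a2 and Aldh1a3 level in the IgG libraries. In the anti-LIF libraries its share was 38.1%, 46.4%, 27.0% and 59.0%. Aldh1a2 made up 11.7% to 14.3% with IgG and 31.7% to 65.9% with anti-LIF, and it exceeded Aldh1a3 in libraries KPCL-PCC_227_GA and KPCL-PCC_354_GA. The ratio of Aldh1a3 to Aldh1a2 was 4.50 to 6.33 with IgG and 0.410 to 1.86 with anti-LIF. Scaling factors cancel in these shares and ratios. The summed level of the 3 genes overlapped between the arms, at 50.0 ± 11.5 FPKM with IgG and 37.5 ± 6.34 with anti-LIF (mean ± SD, n = 4).

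**Figure D2:**
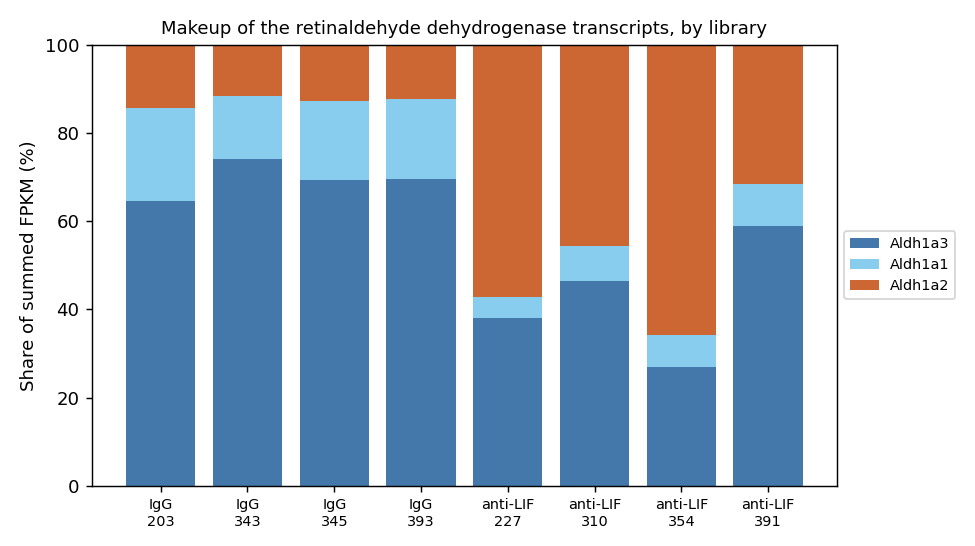
Stacked bars give, for each of the 8 libraries, the percent of summed FPKM that comes from Aldh1a3, Aldh1a1 and Aldh1a2. Aldh1a2 takes 11.7% to 14.3% of each IgG bar and 31.7% to 65.9% of each anti-LIF bar.

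Aldh2, the main mitochondrial acetaldehyde dehydrogenase and the most abundant of the 10 genes per length, lies at chromosome 5, 121566027 to 121593824 (minus strand). It was at 189, 185, 188 and 220 CPM in the IgG libraries, and at 347, 240, 268 and 251 CPM in the anti-LIF libraries. The arms did not overlap, with library KPCL-PCC_227_GA the highest. The rise was 1.41-fold (0.50 ± 0.13 SE, adjusted p = 0.0198 by edgeR; 0.37 without library KPCL-PCC_227_GA, adjusted p = 0.0204). Without IgG library KPCL-PCC_343_G the log2 fold change of Aldh2 was 0.47 and it no longer passed (adjusted p = 0.0582 by edgeR). Scaled to the macrophage list the direction turned to -0.56 (adjusted p = 0.00902 by edgeR).

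Aldh1b1, a mitochondrial enzyme closely related to ALDH2 and known from pancreatic and intestinal progenitors, lies at chromosome 4, 45799022 to 45804608 (plus strand). Its IgG values were 11.6, 8.13, 12.7 and 7.78 CPM, and its anti-LIF values 23.5, 15.7, 21.9 and 18.9 CPM. Every anti-LIF library was above every IgG library. The rise was 1.99-fold (0.99 ± 0.20 SE, adjusted p = 0.00841 by edgeR; 0.91 without library KPCL-PCC_227_GA). Scaled to the macrophage list the log2 fold change was -0.03 (adjusted p = 0.915 by edgeR), and no difference from the summed macrophage genes was detected.

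Aldh18a1 encodes delta-1-pyrroline-5-carboxylate synthase, the first enzyme from glutamate towards proline (chromosome 19, 40550257 to 40588463, minus strand). IgG libraries stood at 46.6, 31.1, 37.6 and 29.9 CPM and anti-LIF libraries at 42.9, 58.0, 60.6 and 50.2 CPM. The arms overlapped through IgG library KPCL-PCC_203_G and anti-LIF library KPCL-PCC_227_GA. The rise was 1.46-fold (0.54 ± 0.16 SE, adjusted p = 0.0340 by edgeR; 0.63 without library KPCL-PCC_227_GA), but it no longer passed when any of libraries KPCL-PCC_343_G, KPCL-PCC_345_G, KPCL-PCC_393_G, KPCL-PCC_310_GA, KPCL-PCC_354_GA or KPCL-PCC_391_GA was left out (adjusted p up to 0.0913). Scaled to the macrophage list it turned to -0.43 (adjusted p = 0.137 by edgeR).

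Of 16 tested genes of a proline and glutamate list 2 rose and 2 fell, against 32.2% of all tested genes called, with a median log2 fold change of 0.07. Oat, ornithine aminotransferase, went from 96.0 ± 8.05 to 125 ± 6.85 CPM (adjusted p = 0.0102 by edgeR). The proline hydroxylase subunit P4ha1 rose 2.11-fold, while its paralogs P4ha2 and P4ha3 fell 1.91-fold and 2.39-fold; P4ha3 no longer passed when any single one was left out of libraries KPCL-PCC_203_G, KPCL-PCC_343_G, KPCL-PCC_393_G, KPCL-PCC_354_GA and KPCL-PCC_391_GA. Pycr1, for a next enzyme of proline synthesis, did not pass, and its CPM were 2.67 ± 0.557 in the IgG arm and 2.90 ± 0.590 in the anti-LIF arm. On the macrophage scale Oat turned to -0.64 and P4ha1 was at 0.01, and on the epithelial scale P4ha2 was at 0.06.

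The ALDH3 members showed small differences or none that passed. Aldh3b1, a membrane-bound enzyme that acts on lipid-derived aldehydes (chromosome 19, 3913491 to 3929716, minus strand), was at 44.1, 42.8, 64.6 and 45.3 CPM with IgG and at 92.6, 66.8, 63.8 and 61.2 CPM with anti-LIF. IgG library KPCL-PCC_345_G lay among the anti-LIF values, so the arms overlapped. The rise of 1.44-fold was just past the threshold (0.53 ± 0.18 SE, adjusted p = 0.0464 by edgeR). It was at 0.38 without library KPCL-PCC_227_GA (adjusted p = 0.0839), did not pass when any single one was left out of libraries KPCL-PCC_203_G, KPCL-PCC_343_G, KPCL-PCC_393_G, KPCL-PCC_310_GA or KPCL-PCC_354_GA either (adjusted p up to 0.118), and turned to -0.50 on the macrophage scale (adjusted p = 0.0117).

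Aldh3a2, the fatty aldehyde dehydrogenase (chromosome 11, 61244752 to 61267186, minus strand), was at 78.8, 69.9, 86.0 and 67.1 CPM with IgG and at 84.4, 64.4, 73.7 and 62.1 CPM with anti-LIF. The arms overlapped throughout, with a log2 fold change of -0.08 ± 0.12 SE (adjusted p = 0.621 by edgeR). Its value moved with the scale, at 0.99 scaled to the epithelial list (adjusted p = 0.00334 by edgeR) and -1.11 scaled to the macrophage list (adjusted p = 4.12e-04). Both lie near the medians of all tested genes on these scales (1.04 and -1.02), so these p values follow the shift built into the scales.

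Aldh3a1, an enzyme of cornea and stomach that is inducible through the aryl hydrocarbon receptor (chromosome 11, 61208742 to 61218416, plus strand), was near the limit of detection. It had 10, 14, 17 and 7 reads in the IgG libraries and 2, 21, 4 and 5 in the anti-LIF libraries. Anti-LIF library KPCL-PCC_310_GA held more than every other library at 1.40 CPM, against 0.128 to 0.336 CPM in the rest of its arm. The log2 fold change was -0.30 ± 0.65 SE (adjusted p = 0.749 by edgeR) and 0.02 without library KPCL-PCC_227_GA. Without KPCL-PCC_310_GA it was -1.42 (adjusted p = 0.0558), so at this depth the value rests on single libraries.

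Per length, the order of the genes with IgG was led by Aldh2 at 62.4 ± 7.38 FPKM, then Aldh1a3 at 34.6 ± 7.58 and Aldh3b1 at 22.4 ± 4.09. Aldh3a2 (19.6 ± 2.11 FPKM) overlapped with Aldh3b1 across libraries. Aldh1a1 (9.04 ± 2.82 FPKM), Aldh18a1 (8.65 ± 2.02) and Aldh1a2 (6.41 ± 1.61) formed a group whose ranges overlapped. Aldh1a7 (3.87 ± 1.28 FPKM) and Aldh1b1 (3.63 ± 0.875) overlapped with each other, and Aldh3a1 was last at 0.337 ± 0.102. For Aldh2, Aldh3a1 and Aldh3a2 the FPKM table uses a different transcript from the count table (for Aldh2, 2030 against 3852 bases), which bears on their place in the order.

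With anti-LIF, Aldh2 remained highest at 78.8 ± 7.80 FPKM, with Aldh3b1 next at 29.5 ± 3.88 FPKM, overlapping with Aldh1a2, which exceeded it in library KPCL-PCC_354_GA (30.5 against 27.6 FPKM). Aldh1a2 (19.1 ± 8.07 FPKM), Aldh3a2 (16.8 ± 1.53), Aldh1a3 (15.7 ± 4.63) and Aldh18a1 (11.6 ± 2.34) each overlapped with the next. Aldh1b1 at 6.58 ± 0.907 FPKM stood above Aldh1a1 at 2.75 ± 0.911 in every anti-LIF library, whereas with IgG every Aldh1a1 value was above every Aldh1b1 value. Aldh1a7 at 0.479 ± 0.191 FPKM and Aldh3a1 at 0.261 ± 0.296 overlapped. The summed level of all 21 Aldh genes was 251 ± 16.0 FPKM with IgG and 265 ± 19.6 with anti-LIF, and the arms overlapped.

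**Figure D3:**
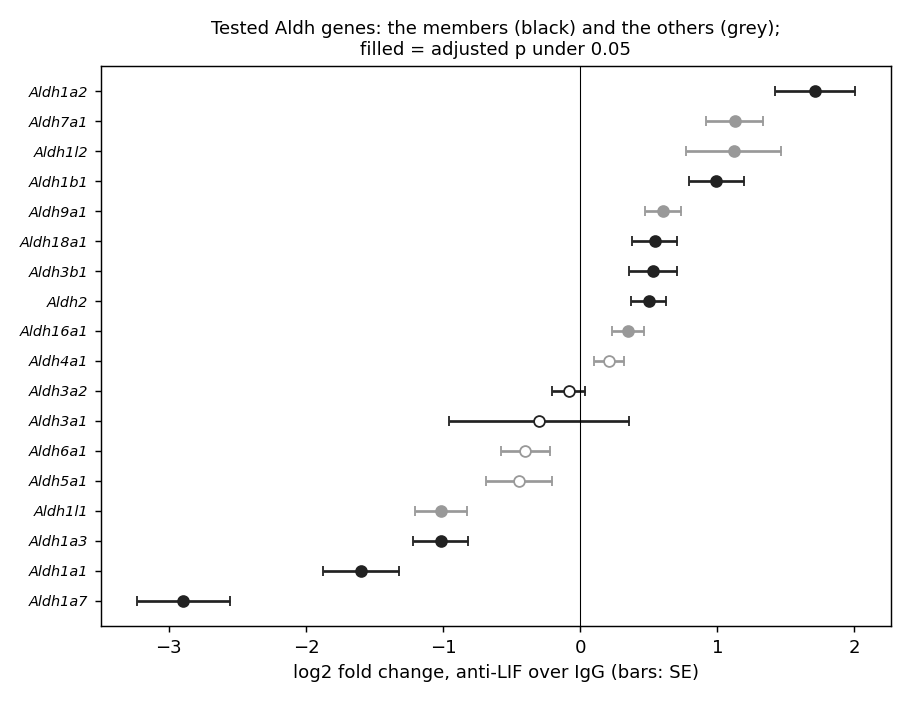
The horizontal axis gives the log2 fold change of anti-LIF over IgG with its SE for the 18 tested Aldh genes, the 10 members in black and 8 others in grey, filled where the edgeR adjusted p is under 0.05. Aldh1a7 lies at -2.89 and Aldh1a2 at 1.71, with the other genes between them.

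Among the 11 other Aldh genes, 8 were tested, of which 4 rose and 1 fell, against 15.7% higher and 16.5% lower over all tested genes. Aldh1l1, a folate enzyme (10-formyltetrahydrofolate dehydrogenase), fell 2.02-fold, from 72.9 ± 15.4 to 36.1 ± 7.59 CPM (adjusted p = 0.00651 by edgeR), and like Aldh1a3 it was near 0 on the epithelial scale (0.06). Aldh7a1, a lysine-degrading enzyme, rose 2.18-fold (adjusted p = 0.00639) and was at 0.04 on the macrophage scale. Aldh9a1, which acts on aminoaldehydes and was the most abundant of these genes per length, rose 1.52-fold, from 76.8 ± 9.05 to 117 ± 19.0 CPM (adjusted p = 0.0105), and turned to -0.43 on the macrophage scale. Aldh1l2, the mitochondrial relative of Aldh1l1, rose 2.17-fold from 2.31 ± 0.707 CPM (adjusted p = 0.0370), and Aldh16a1 rose 1.27-fold (adjusted p = 0.0494). Both had overlapping arms, Aldh1l2 passed in 10 and Aldh16a1 in 6 of 19 alternatives, and 1 of these 6 was the macrophage scale, on which Aldh16a1 turned to -0.68. The mitochondrial enzyme genes Aldh4a1, Aldh5a1 and Aldh6a1 did not pass, with log2 fold changes of 0.21, -0.45 and -0.40. Aldh3b2, Aldh3b3 and Aldh8a1 had too few reads to be tested.

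**Figure D4:**
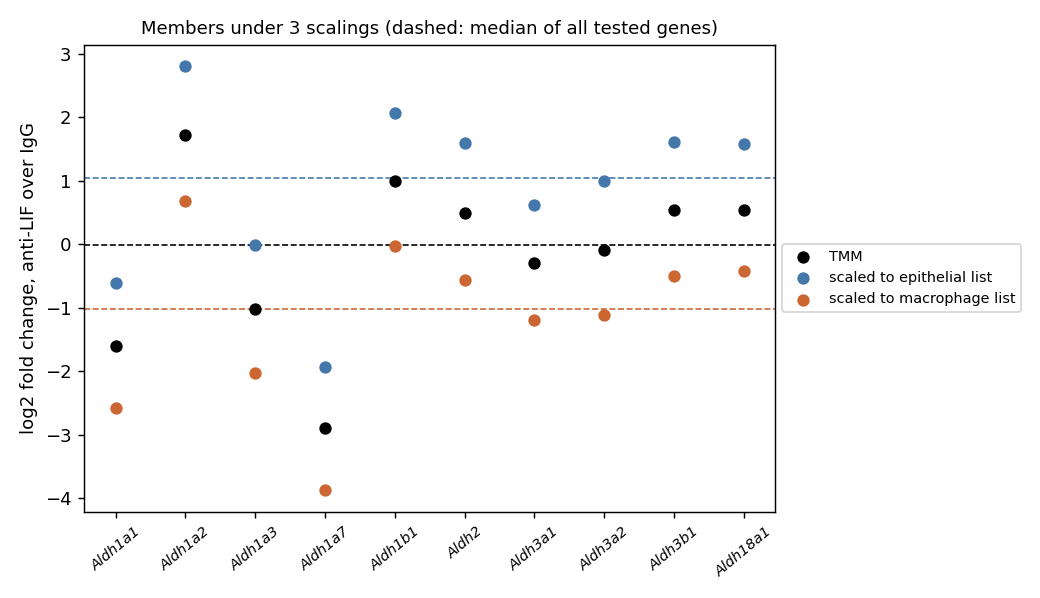
For each of the 10 genes, points give the log2 fold change of anti-LIF over IgG with TMM scaling (black) and with libraries scaled to the epithelial list (blue) or the macrophage list (orange), and dashed lines give the median of all tested genes on each scale (-0.01, 1.04 and -1.02). Aldh1a1 and Aldh1a7 are below 0 and Aldh1a2 is above 0 on all 3 scales, Aldh1a3 falls to 0 on the epithelial scale and Aldh1b1 on the macrophage scale.

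Retinoid genes include those that supply and read out these enzymes. The table held 43 genes of the retinoid list, of which 30 were tested, 3 rose, 5 fell and 22 did not pass, against 32.2% of all tested genes called, with a median log2 fold change of 0.09. Rdh10, the retinol dehydrogenase that makes retinaldehyde, fell 1.70-fold, from 160 ± 19.1 to 94.1 ± 22.4 CPM (-0.77 ± 0.17 SE, adjusted p = 0.0128 by edgeR), although on the epithelial scale it was at 0.23 and did not pass. Dhrs3, which reduces retinaldehyde back to retinol and is known to be induced by retinoic acid, rose 2.63-fold, from 95.9 ± 14.6 to 252 ± 89.4 CPM (1.40 ± 0.24 SE, adjusted p = 0.00533), and was at 0.33 on the macrophage scale (adjusted p = 0.101). In both genes the arms did not overlap.

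Rarb, a retinoic acid receptor gene that is itself a known retinoic acid target, rose 1.66-fold from a low level, from 3.72 ± 0.403 to 6.17 ± 0.495 CPM (adjusted p = 0.00944 by edgeR), but turned to -0.28 on the macrophage scale (adjusted p = 0.361). The retinoic acid carrier gene Crabp2 fell 4.10-fold, from 9.80 ± 2.52 to 2.39 ± 1.66 CPM (adjusted p = 0.0157). Crabp2 was lower on all 3 scales, at -1.13 on the epithelial one. Rdh13 fell 1.87-fold and was at 0.11 on the epithelial scale. The retinoic acid hydroxylases Cyp26a1 and Cyp26b1, further known targets, did not pass, at 1.94 ± 0.154 and 2.18 ± 1.99 CPM for Cyp26a1 and 41.3 ± 4.83 and 56.3 ± 48.0 CPM for Cyp26b1. The other calls named here were Adh5, which fell 1.21-fold and turned to 0.76 on the epithelial scale, and the carotenoid enzyme gene Bco2, which rose 2.04-fold and was at -0.01 on the macrophage scale. Each of these also lost its call when any of 5 single libraries was left out.

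**Figure D5:**
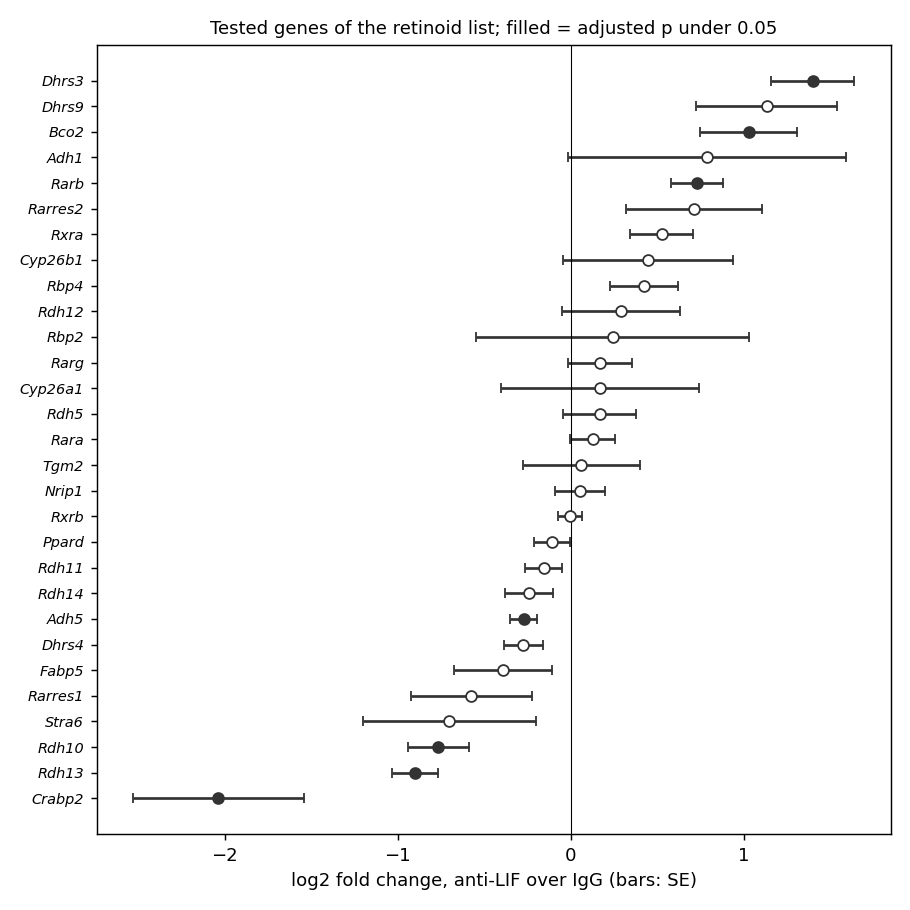
The horizontal axis gives the log2 fold change of anti-LIF over IgG with its SE for 29 of the 30 tested genes of the retinoid list, filled where the edgeR adjusted p is under 0.05. Crabp2 lies lowest at -2.04 and Dhrs3 highest at 1.40, and 22 of the 29 are open.

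Of 21 tested genes of a list of other enzymes that handle aldehydes, 4 rose, 5 fell and 12 did not pass (median log2 fold change 0.08), against 32.2% of all tested genes called. The aldo-keto reductase genes Akr1b7 and Akr1b8, which reduce aldehydes to alcohols, fell 6.36-fold (from 66.1 ± 15.9 to 10.4 ± 6.46 CPM, adjusted p = 0.00485 by edgeR) and 2.79-fold (adjusted p = 0.00569), and both were also lower on the epithelial scale (-1.76 and -0.53). Aox3, an aldehyde oxidase, fell 6.06-fold from 3.00 ± 0.604 CPM (adjusted p = 0.00515), while Akr1b10 rose 1.54-fold (adjusted p = 0.00637) and turned to -0.40 on the macrophage scale. A further list held genes for NRF2 and the aryl hydrocarbon receptor, regulators linked to Aldh3a1, with their partners and targets, and also included Akr1b8. Of its 28 tested genes 4 rose, 4 fell and 20 did not pass (median -0.02), against the same 32.2%. Nqo1, a target of both regulators, fell 2.31-fold from 4.70 ± 0.911 CPM (adjusted p = 0.00962) and Gclc, for glutathione synthesis, fell 1.64-fold (adjusted p = 0.0135). On the epithelial scale Nqo1 was at -0.23 and Gclc turned to 0.29, and neither passed. G6pdx, an NADPH source, rose 1.27-fold (adjusted p = 0.00969) and turned to -0.67 on the macrophage scale.

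The tested genes whose profiles over the 8 libraries were closest to each called member were found by the root mean square difference of centred log2 CPM. For Aldh1a1 they were Scd3 (0.19), Sphk1 (0.22) and Apol8 (0.27), and for Aldh1a7 Scnn1a (0.33), Tll1 (0.35) and Btn1a1 (0.39). For Aldh1a3 they were Etfbkmt (0.14), 1500015A07Rik (0.15) and Hspa2 (0.16). For Aldh1a2 they were Syn1 (0.21), B4galt4 (0.22) and Unc5a (0.24). For Aldh1b1 they were Supt3 (0.11), Ppm1h (0.11) and Themis2 (0.12), and for Aldh2 Stx2 (0.04), Atp1b3 (0.05) and Ripk1 (0.06). For Aldh3b1 they were Il11ra1 (0.10), Bscl2 (0.10) and Blvra (0.10). The nearest gene to Aldh18a1 was Cad (0.11), which encodes the first enzymes of pyrimidine synthesis, followed by Rtn4ip1 (0.11) and Serpinb9 (0.12). No member was among the nearest genes of another.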

How the data were processed

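The authors deposited raw counts of exonic reads, 1 transcript per gene, and FPKM for the same libraries, both written by HOMER on mm10 per the file headers. The submitters' processing notes also name STAR 2.4.0k, FastQC 0.11.2 and edgeR 3.6.8, without saying how each was used. No source used here gives the HOMER version, strand setting, annotation version or read length. All 168000 FPKM values of 21000 transcripts shared by both tables matched the counts within 0.002 FPKM. 

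The test of the counts was run with edgeR 4.0.16 (R 4.3.3), using filterByExpr defaults (14711 of 24537 genes), TMM, the quasi-likelihood test and Benjamini-Hochberg adjustment over all tested genes. Levels between genes use the deposited FPKM, which carry no TMM factor. Libraries are called by their titles in the labels, 1 per mouse, and the arms share no number. Alternatives were other scalings, DESeq2 1.42.0, limma 3.58.1 (voom, or trend after adding 1 or 0.1 to FPKM and taking log2), other filters, and each library left out. Promoters are from the RefSeq table (GRCm38.p6), and transcripts from GENCODE M21 on GRCm38.

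Members and gene lists were chosen with earlier results of these data known. Named genes are all members, other Aldh genes past the threshold, the most abundant of these, the 4 lowest p values of each pathway list, reference genes, and the 3 nearest profiles of each called member. The retinoid genes Crabp2, Adh5, Bco2, Cyp26a1 and Cyp26b1, Pycr1 and the cell markers were named after their values were seen. Some genes counted in the lists, and 1 allele, are not reported here by name.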

Additional observations from a re-analysis of the deposited data

Results flagged for a closer look

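In 4 of the 20 combinations of gene and arm examined, 1 library lay far from the other 3 of its arm by Dixon's gap test, which flags about 1 in 20 groups by chance. IgG library KPCL-PCC_393_G was high in Aldh1a3 at 182 CPM (the others at 123 to 129) and in Aldh2 at 220 CPM (the others at 185 to 189). IgG library KPCL-PCC_345_G was high in Aldh3b1 at 64.6 CPM (the others at 42.8 to 45.3). Anti-LIF library KPCL-PCC_310_GA was high in Aldh3a1 at 1.40 CPM (the others at 0.128 to 0.336), from 21 reads.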

How the results depend on the processing

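Of 19 alternatives, Aldh1a1 and Aldh1a7 kept direction and call in all, and Aldh1a2, Aldh1a3, Aldh1b1 and Aldh2 in all but 1 or 2, as given with each gene. Aldh3b1 kept direction and call in 8 and Aldh18a1 in 9. Each lost its call in 10, and Aldh3b1 was called in the opposite direction in 1, on the macrophage scale. The main counts were 4731 genes (2303 higher, 2428 lower) and 8 members (5 and 3). With libraries scaled to the epithelial list 11452 genes were called (11282 higher, 170 lower), and Aldh3a1 (0.62) and Aldh3a2 (0.99) turned upward. With the macrophage list 12106 were called (221 and 11885), members were 0 higher and 6 lower, and Aldh1b1 (-0.0252), Aldh2 (-0.56), Aldh3b1 (-0.50) and Aldh18a1 (-0.43) turned downward. These scalings shift all genes by construction, with medians of 1.04 and -1.02. By library size alone (median -0.16) 1430 genes and 3 members were higher, and 3567 genes were lower. On log2(FPKM + 0.1) (median -0.13) 1535 genes and 3 members were higher against 3344 genes lower. On log2(FPKM + 1) (median -0.10) 3 members and 1551 genes were higher against 3402 lower. None of these 3 settings uses the TMM factors, which were 1.04 to 1.08 with IgG and 0.844 to 0.986 with anti-LIF. The cause of the differing counts was not tested. Higher genes were 48.7% of calls with TMM, and 28.6%, 31.5% and 31.3% in these 3. Leaving out 1 library at a time gave 2974 (without IgG library KPCL-PCC_343_G) to 4354 genes (without anti-LIF library KPCL-PCC_310_GA), 1467 to 2218 higher and 1507 to 2136 lower, and 5 to 7 members, 2 to 4 higher and 3 lower; without anti-LIF library KPCL-PCC_354_GA 1521 genes were lower. Aldh3a1 ranged from -1.42 (without anti-LIF library KPCL-PCC_310_GA) to 0.0228 (without KPCL-PCC_227_GA). No paired analysis was possible because the titles of the arms share no number. Aldh3a1, at 2 to 21 reads, is limited by depth.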
